A study of Mus musculus with 9 samples.

Results

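The genes described here are 35 mouse genes whose products modify, fold, export, trim and crosslink procollagen. They were taken by symbol from a named list and matched to the Ensembl identifiers of the deposited table through the GENCODE M21 gene models. All 35 were found among the 54532 genes of the table, and all 35 had enough reads to be tested. The rule used no measured value, but the list was chosen with earlier results of these data known.

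Procollagen chains are made in the endoplasmic reticulum, where prolyl 4-hydroxylase lets the triple helix become stable at body temperature and lysyl hydroxylases prepare lysines for sugar attachment and for crosslinks. Helices are held by the chaperone HSP47, leave in enlarged COPII carriers, lose their end propeptides to proteinases outside the cell, and are joined by lysyl oxidases. Cartilage rests mainly on type II collagen fibrils, tendon and bone mainly on type I, and loose connective tissue mainly on types I and III.

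Polyadenylated RNA was measured in cells of the knee region of mouse embryos at stage E14.5. Every embryo was heterozygous for both reporter alleles, Creb5-3XHA-P2A-tdTomato and Sox9-ires-EGFP, so all groups carry both and none is free of a reporter. Cells released with collagenase were sorted into 3 populations, written green for GFP-only cells (Sox9 reporter alone), red for RFP-only cells (Creb5 reporter alone) and dual for double-positive cells (both reporters). Each population has 3 libraries, 1 from each of litters 1, 2 and 5, and each library came from the sorted knee cells of 1 litter. The submitters' label of the deposited values says that the litters numbered between 2 and 5 were left out. A reporter marks cells by a gene's activity, not by a cell type, so a population can hold several types. The litters were collected on separate dates.

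Values are the deposited normalized counts, and library values always stand in the order of litters 1, 2 and 5. Fold changes are on the log2(normalized count + 1) scale with their standard error (SE), and a gene was called where limma's adjusted p over all 17764 tested genes was under 0.05. Depth lay between 25199258 and 47079305 recovered reads per library. The reporter host genes followed the sort: Sox9 was 28910.0 ± 8025, 23474 ± 6622 and 1618 ± 457 and Creb5 was 203 ± 68.1, 3044 ± 333 and 2959.8 ± 832 normalized counts (mean ± SD, n = 3) in green, dual and red cells. The green library of litter 5 stood apart by transcript length. Each gene's log2 value was set against the mean of the other libraries of its population. Medians were then taken over 3 groups of genes by exon length. The median of the short group less that of the long group was 1.11 in this library. It was -0.612 and -0.448 in the other green libraries, whose reference holds this library, and -0.28 to 0.335 elsewhere. For the procollagen genes of the named list, calls that change without the green library of litter 5 are given both ways. So are their called differences whose fold this library moved by over 1.5 times. Calls on all other genes, such as substrates, pathway genes and cell type markers, were not checked gene by gene without this library. In bulk libraries, fewer cells of a type and less RNA per cell cannot be told apart.

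The comparison of red with green cells held the most calls. Of the 35 genes 20 were lower and 4 higher in red cells, where 8.48% of all tested genes were called lower and 11.8% higher. The median log2 fold change of the 35 genes was -0.89, beside 0.05 over all tested genes, and 26 of the 35 genes had no overlap between the libraries of the groups (39.4% of all tested genes). The 20 lower genes included all 4 prolyl 4-hydroxylase subunits, all 3 lysyl hydroxylases and both collagen galactosyltransferases. The 4 higher genes were Lox, Loxl1, Bmp1 and Adamts2, which act outside the cell. Products of Loxl3, Loxl4, Pcolce2, Adamts3 and Adamts14 act there too, and these genes were among the 20 lower ones. Calls in either direction were 24, beside 20.3% of all tested genes, and 23 of them had 1 sign in all 3 litters, P3h2 being the exception.

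Against green cells, dual cells were lower for 6 genes (P4ha2, P3h1, Serpinh1, Loxl4, Pcolce2 and Adamts3), where 3.02% of all tested genes were called lower. No member was called higher by limma, beside 5.27% of all tested genes, 2 were higher at an unadjusted p under 0.05, and edgeR and DESeq2 called 0. The median of the 35 genes was -0.63, beside 0.04 over all tested genes, and groups did not overlap for 19 members (28.1% of all tested genes). These 6 calls stand beside 8.29% of all tested genes in either direction. The count of 6 lower genes depended on single libraries: it was 10 without the green library of litter 5 (P4hb, P3h2, Colgalt1 and Adamts14 being added), 11 without the dual library of litter 5, and 3 without either of the other dual libraries. It was 10 with litter as a fixed block. Without the green library of litter 2, Loxl1 and Adamts2 were called higher.

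Dual cells were higher than red cells for 6 genes (P4ha2, P4ha3, Plod2, Colgalt2, Loxl3 and Pcolce2), where 1.8% of all tested genes were called higher. Calls in either direction covered 2.85% of all tested genes. None was called lower by limma, beside 1.05% of all tested genes; 3 were lower at an unadjusted p under 0.05, edgeR called 0, and DESeq2 called 2, Lox and Adamts2. These same 2 genes were called without the green library of litter 5, where 8 genes were higher, Plod3 and P3h3 being added. The count of 6 was 2 without the dual library of litter 5, 1 without the red library of litter 1 or that of litter 2, and 3 without the red library of litter 5. The median of the 35 genes was 0.04, beside -0.01 over all tested genes, and groups did not overlap for 17 members (23.8% of all tested genes). The 3 comparisons share their libraries in pairs and are not independent of one another.

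The mean of the dual libraries lay between those of the other populations for 26 of the 35 genes, and for 52.5% of all tested genes. The order green, dual, red from high to low held for 19 members and for 24.5% of all tested genes. The F-test over the 3 populations called 19 members, beside 17.2% of all tested genes. Calls were made in at least 1 comparison for 24 genes. The other 11 were P3h3, Fkbp10, Loxl2, Pcolce, Tll1, Tll2, Sec23a, Sec24d, Mia3, Tmem38b and Sparc.

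**Figure D1:**
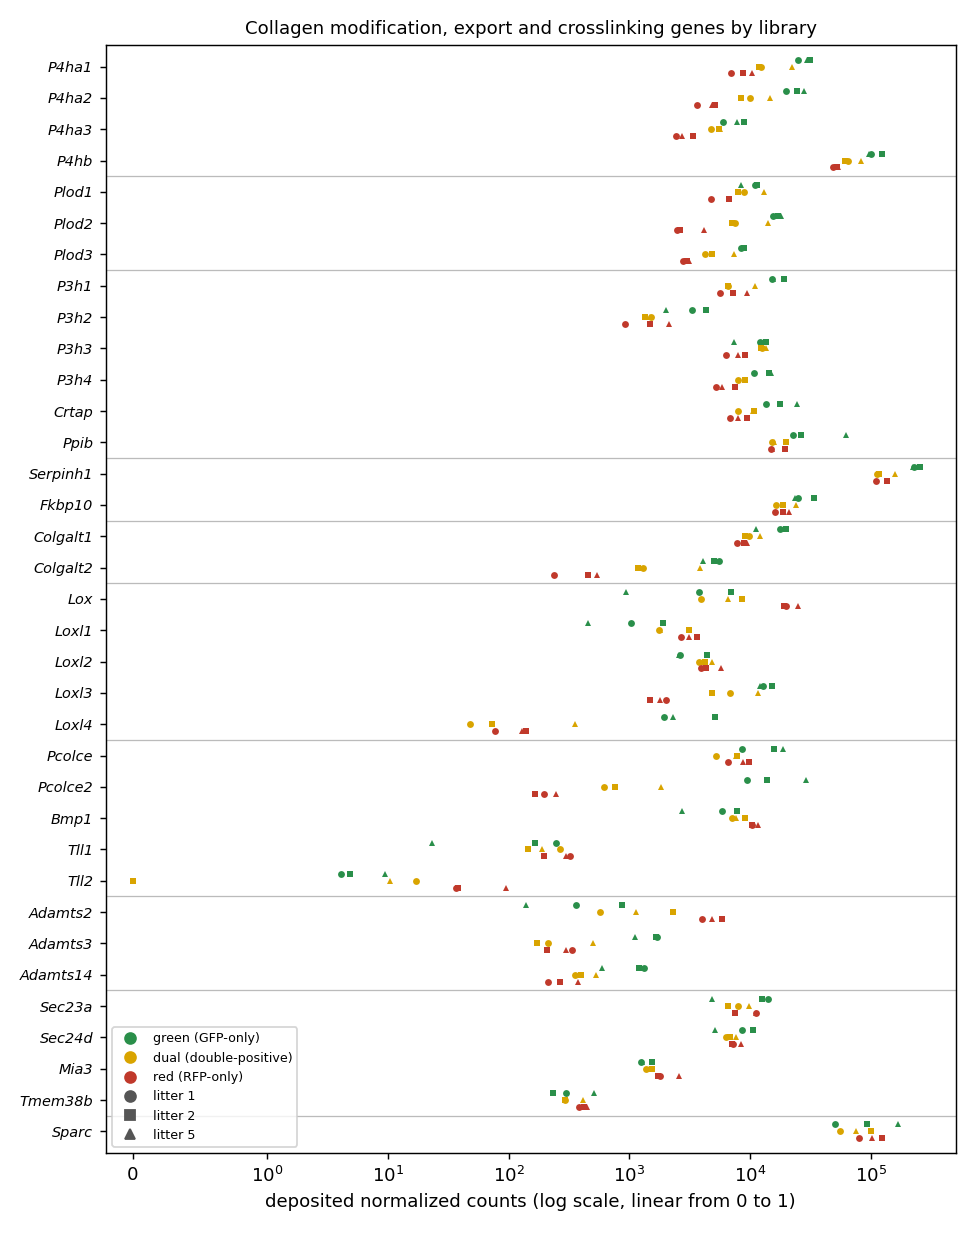
Deposited normalized counts (log axis, linear below 1) of the 35 genes, with 1 point per library, coloured by population and shaped by litter, and lines between roles. The green points of P4ha1 to Plod3 lie to the right of the red points, while for Lox and Adamts2 the red points lie to the right.

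**Figure D2:**
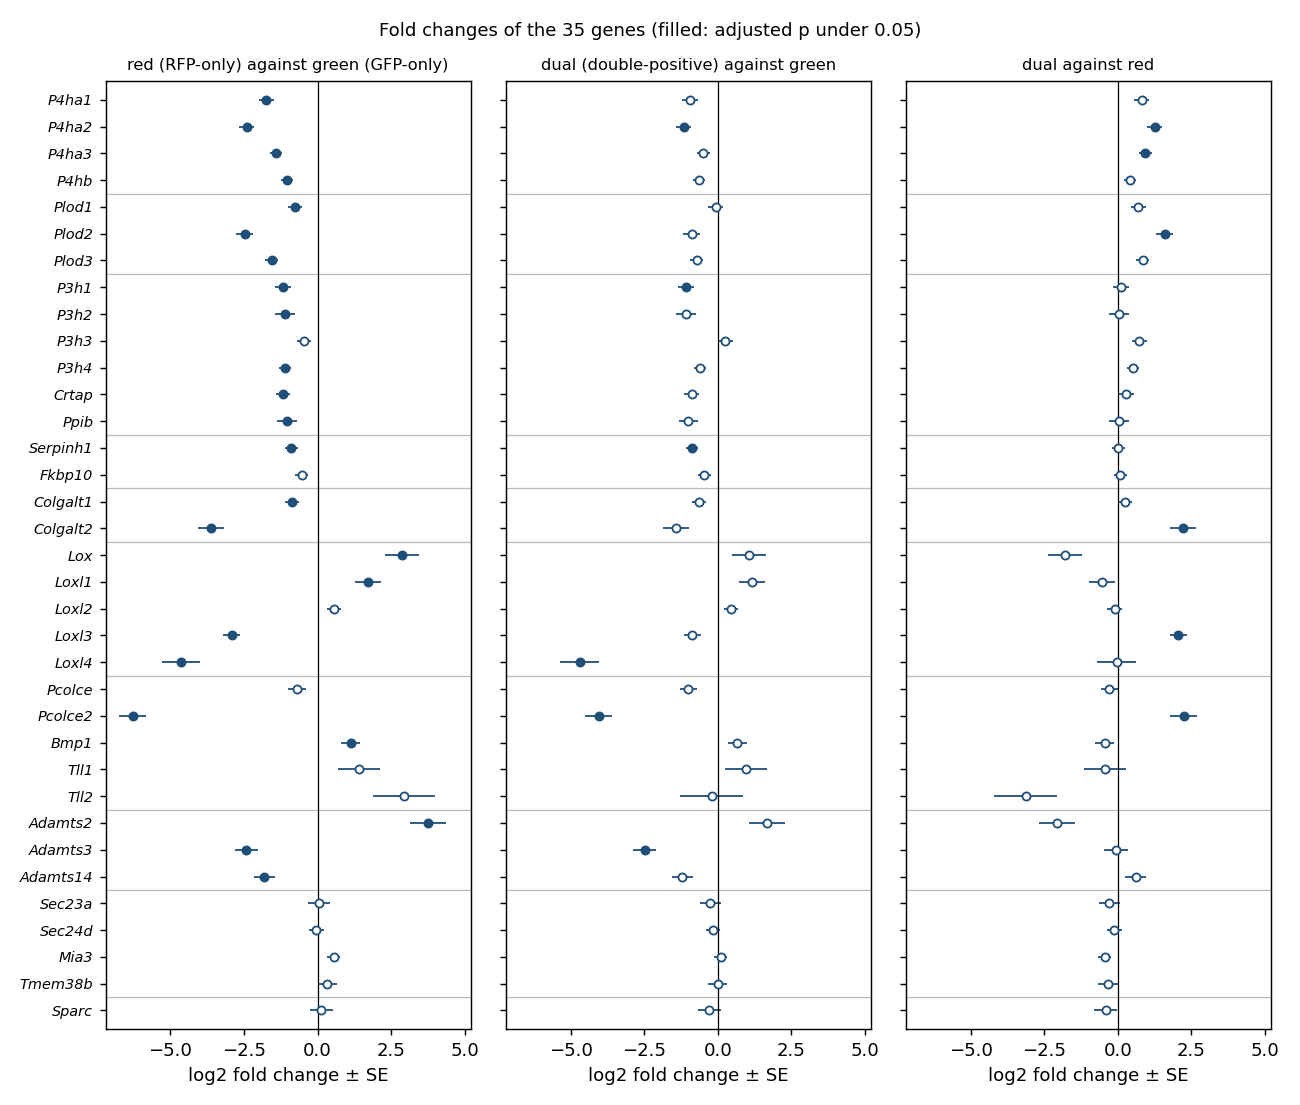
Log2 fold changes with their SE for the 35 genes in the 3 comparisons; filled points passed an adjusted p of 0.05. Red against green cells holds 24 filled points, 20 to the left of 0, and each comparison with dual cells holds 6.

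Cell type markers moved with these comparisons. Of 10 cartilage markers 10 were lower in red cells and 7 lower in dual cells than in green cells, with a summed level of 725015 to 1184850 normalized counts in green, 181528 to 491070 in dual and 5437 to 9046 in red libraries. Osteoblast and perichondrium markers summed to 40153 to 144090, 2695 to 17255 and 1180 to 4450 in the same order, with 6 of 7 tested markers lower in red cells and 5 lower in dual cells. Loose connective tissue markers went the other way (2927 to 3921, 7168 to 15487 and 24760 to 31641), with 8 of 8 higher in red cells. Skeletal muscle markers (801 to 2176, 1020 to 3315 and 8368 to 32692) were higher in red cells for 9 of 10. Blood and immune markers (195 to 669, 2438 to 15957 and 1323 to 4016) were higher than in green cells for 7 of 10 in dual and 5 of 10 in red cells. Of the blood and immune markers 0 were called between dual and red cells. Joint interzone markers (10505 to 13058, 52768 to 106977 and 38909 to 45244) were higher in dual than in green cells for 6 of 10, and in red cells 6 were higher and 3 lower. Tendon markers (22811 to 45743, 43397 to 87214 and 48915 to 62837) were higher for 5 of 8 in dual and in red cells. Endothelial markers (452 to 1153, 880 to 4546 and 4234 to 5351) were higher for 2 of 8 in dual and 5 of 8 in red cells. Of 8 Schwann cell and neuron markers (1506 to 4378, 2796 to 4300 and 4890 to 5877), 3 were higher and 2 lower in red cells. Pericyte and smooth muscle markers summed to 14986 to 17911, 9349 to 18924 and 12252 to 17063, which overlapped, with 7 of 8 higher and 1 lower in red cells. Erythroid markers (3816 to 24589, 6441 to 49508 and 26912 to 89501) were higher in red cells for 1 of 7, and of 6 epidermis markers (1118 to 2251, 1084 to 1683 and 770 to 1153) 1 was higher and 1 lower. Between dual and red cells, 10 of 10 cartilage and 4 of 10 joint interzone markers were higher in dual cells. Lower in dual cells were 6 of 10 skeletal muscle, 2 of 8 loose connective tissue and 1 of 7 erythroid markers. Tendon markers, and Schwann cell and neuron markers, each had 1 higher and 2 lower of 8. Pericyte and smooth muscle markers had 1 higher and 1 lower of 8. Of all tested genes 1.8% were higher and 1.05% lower there. No tested marker of these lists was at 0 in all libraries of a population. The part of these cell types in the results on the 35 genes was not tested.

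The prolyl 4-hydroxylase genes were all lower in red than in green cells, with all 3 litters of 1 sign. The enzyme is a tetramer of catalytic alpha subunits, from P4ha1, P4ha2 or P4ha3, with the beta subunit from P4hb, which is also a protein disulfide isomerase. P4ha1 (chromosome 10, 59323296 to 59373304, plus strand, GRCm38) had 24982, 30985 and 29456 normalized counts in the green libraries, 12357, 11904 and 22059.8 in the dual libraries and 6884, 8669.9 and 10273 in the red libraries. P4ha2 (chromosome 11, 54100095 to 54131665, plus strand) had 19768, 24573 and 27883 normalized counts in the green libraries, 9899.9, 8339 and 14640.5 in the dual libraries and 3633, 5087 and 4865 in the red libraries. The green libraries were the highest 3 of both genes and the red libraries the lowest 3, with the dual libraries between.

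P4ha2 had the larger differences: it was 5.32-fold lower in red cells (log2 fold change -2.41 ± 0.25, adjusted p = 9.68e-05), 2.24-fold lower in dual cells (log2 fold change -1.16 ± 0.25, adjusted p = 0.0169) and 2.38-fold higher in dual than in red cells (log2 fold change 1.25 ± 0.25, adjusted p = 0.0229). P4ha1 was 3.34-fold lower in red cells (log2 fold change -1.74 ± 0.26, adjusted p = 0.000972). Its difference between dual and green cells was -0.94 ± 0.26 and just missed the threshold (adjusted p = 0.0504), passing with litter as a fixed block (adjusted p = 0.0311) or as a random effect (adjusted p = 0.0467). This difference was further from passing under quantile normalization (-0.52, adjusted p = 0.245) and without the dual library of litter 1 (adjusted p = 0.171) or 2 (adjusted p = 0.184). The dual call of P4ha2 against green cells was lost without the dual library of litter 1 (adjusted p = 0.065) or of litter 2 (adjusted p = 0.0816), with these 2 populations alone (adjusted p = 0.0571) and under quantile normalization (adjusted p = 0.0505). Its call against red cells was lost without the dual library of litter 1 or 5 or without any 1 red library (adjusted p from 0.068 to 0.104).

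P4ha3 (chromosome 7, 100285520 to 100319699, plus strand) had 6005, 8913 and 7753 normalized counts in the green libraries, 4778, 5560.2 and 5641 in the dual libraries and 2418, 3330.5 and 2701 in the red libraries. It was lower in red cells than in green cells (log2 fold change -1.42 ± 0.21, adjusted p = 0.000961) and higher in dual than in red cells (log2 fold change 0.93 ± 0.21, adjusted p = 0.0427), a call lost without any 1 of the 6 libraries compared (adjusted p from 0.0825 to 0.184), with edgeR (adjusted p = 0.0526) and with no filter (adjusted p = 0.0658). P4hb (chromosome 11, 120560298 to 120573253, minus strand), the most abundant of the 4 genes, had 100470.0, 123629 and 95286 normalized counts in the green libraries, 63862, 60472 and 83276 in the dual libraries and 48561, 52261 and 53731 in the red libraries. It was 2.06-fold lower in red cells (log2 fold change -1.04 ± 0.20, adjusted p = 0.00474), a call that quantile normalization ended (adjusted p = 0.204). Between dual and green cells its libraries did not overlap, but the difference was -0.63 ± 0.20 (adjusted p = 0.0854), which passed without the green library of litter 5 (adjusted p = 0.0317).

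The 3 alpha subunit genes summed, per kb of merged exons, to 11160 to 14310 in green, 6004 to 9508 in dual and 3027 to 4138 in red libraries. Of that sum P4ha2 held 29.2% ± 2.2 (SD, n = 3) in green, 24.3% ± 1.87 in dual and 19.5% ± 0.843 in red cells. P4ha1 held 52.6% ± 1.83, 51.2% ± 4.49 and 56.2% ± 3.81. The share depends on the length used: with the longest transcript of each gene P4ha2 held 43.5% in green cells and P4ha1 39.2%, so the order of these genes turns there.

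The 250 bases before the start of each of these genes in RefSeq (GRCm38.p6) are shown because the 4 genes moved together and because P4HA genes are textbook targets of hypoxia-inducible factor, whose response element holds the letters ACGTG. Each is written 5′ to 3′ on the strand of the gene, and capitals mark ACGTG or its reverse complement. The windows are chr10:59323046-59323295 on the plus strand for P4ha1, chr11:54100674-54100923 on the plus strand for P4ha2, chr7:100285270-100285519 on the plus strand for P4ha3 and chr11:120573254-120573503 on the minus strand for P4hb.
P4ha1: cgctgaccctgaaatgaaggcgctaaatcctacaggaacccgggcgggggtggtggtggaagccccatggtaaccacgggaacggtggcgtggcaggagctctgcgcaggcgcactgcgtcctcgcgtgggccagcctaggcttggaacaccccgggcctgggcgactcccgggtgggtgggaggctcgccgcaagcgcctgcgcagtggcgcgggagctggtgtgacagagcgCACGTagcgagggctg
P4ha2: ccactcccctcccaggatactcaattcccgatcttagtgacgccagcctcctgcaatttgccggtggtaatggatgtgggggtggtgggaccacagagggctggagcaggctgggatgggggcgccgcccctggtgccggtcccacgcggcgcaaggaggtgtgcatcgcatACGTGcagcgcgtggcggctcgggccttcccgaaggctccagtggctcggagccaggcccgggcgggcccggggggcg
P4ha3: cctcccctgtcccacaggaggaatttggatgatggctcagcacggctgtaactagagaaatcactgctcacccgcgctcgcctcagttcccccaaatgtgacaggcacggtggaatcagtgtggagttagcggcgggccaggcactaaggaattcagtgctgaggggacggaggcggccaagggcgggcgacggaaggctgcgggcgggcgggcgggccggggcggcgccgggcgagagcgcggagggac
P4hb: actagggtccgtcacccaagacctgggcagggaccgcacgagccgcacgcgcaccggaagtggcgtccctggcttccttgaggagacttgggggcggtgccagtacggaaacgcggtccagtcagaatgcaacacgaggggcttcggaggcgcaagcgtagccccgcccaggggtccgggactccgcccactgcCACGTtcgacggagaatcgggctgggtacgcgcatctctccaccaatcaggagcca
The letters ACGTG stood in the windows of P4ha1, P4ha2 and P4hb and not in that of P4ha3. On either strand they stood in 16.6% of all 32851 such windows. This is a match of letters in these windows and shows no binding. The P4ha2 window lies within the GENCODE gene, between its exons.

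Of 20 genes of the hypoxia response itself, 4 were lower and 2 higher in red than in green cells. These are 20% and 10%, beside 8.48% and 11.8% of all tested genes. In dual cells 1 was lower than in green cells (5%, beside 3.02%) and 2 were higher than in red cells (10%, beside 1.8%). The 20 genes summed to 65738 to 101774 normalized counts in green, 50570 to 70154 in dual and 38132 to 47231 in red libraries. The part of a hypoxia response in the results on the 35 genes was not tested. Bnip3, a mitophagy receptor, was lower in red cells (log2 fold change -2.72 ± 0.27, adjusted p = 7.47e-05), as was Car9, a carbonic anhydrase (log2 fold change -3.86 ± 0.50, adjusted p = 0.000411). Ndrg1 was higher (log2 fold change 1.35 ± 0.38, adjusted p = 0.0298). Hif1a had 7245 ± 2608, 9885 ± 2413 and 7149 ± 769 normalized counts in green, dual and red cells and passed in no comparison.

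Lysyl hydroxylase genes were lower in red cells for all 3 members, with Plod2 the most. Plod2 (chromosome 9, 92542223 to 92608428, plus strand), whose product hydroxylates the telopeptide lysines used in stable crosslinks, had 15326, 16867 and 18007 normalized counts in the green libraries, 7454, 7081 and 14001 in the dual libraries and 2460.4, 2618 and 4164 in the red libraries. It was 5.58-fold lower in red than in green cells (log2 fold change -2.48 ± 0.29, adjusted p = 0.000200) and 3.02-fold higher in dual than in red cells (log2 fold change 1.59 ± 0.29, adjusted p = 0.0142). The groups did not overlap in any of the 3 comparisons. Between dual and green cells the difference was -0.88 ± 0.29 and did not pass (adjusted p = 0.0855), but passed with litter as a fixed block (adjusted p = 0.0367) and without the dual library of litter 5 (adjusted p = 0.0274), which was the closest to the green libraries. The call against red cells was lost without the red library of litter 1 (adjusted p = 0.0678) or 2 (adjusted p = 0.0788).

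Plod3, which also carries glycosyltransferase activity, had 8432, 8931 and 8846 normalized counts in the green libraries, 4244, 4787 and 7377 in the dual libraries and 2788, 2974 and 3142 in the red libraries. It was lower in red than in green cells (log2 fold change -1.56 ± 0.22, adjusted p = 0.000670), with no overlap. Between dual and red cells the difference was 0.84 ± 0.22 and did not pass (adjusted p = 0.0734). It passed without the green library of litter 5 (adjusted p = 0.0344). Plod1, whose product acts on helical lysines, had 11047, 11382 and 8446 normalized counts in the green libraries, 8884, 7875 and 13000.1 in the dual libraries and 4775, 6641 and 6732 in the red libraries. Of its dual libraries 1 lay above, 1 below and 1 within the range of the green libraries, and the red libraries lay below all others. The red difference of -0.77 ± 0.24 passed narrowly (adjusted p = 0.0448) and was lost without any 1 library other than the green and dual libraries of litter 5 (adjusted p from 0.0509 to 0.182). It was also lost with litter as a fixed block (adjusted p = 0.063), under quantile normalization (-0.50, adjusted p = 0.192), with TMM scaling (adjusted p = 0.055), with edgeR (adjusted p = 0.0667), with these 2 populations alone (adjusted p = 0.0596) and with no filter on low values (adjusted p = 0.0759).

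The make-up of the family differed between populations. Per kb, Plod2 held 47.3% ± 3.27 of the family level in green, 39.1% ± 2.71 in dual and 26.6% ± 4.34 in red cells, and Plod1 held 23.2% ± 3.61, 33.4% ± 2.48 and 42.1% ± 3.57. The Plod3 share was 29.5% ± 0.397, 27.4% ± 2.2 and 31.3% ± 3.23. With these merged exon lengths Plod2 was the leading member in all green and dual libraries and Plod1 in all red libraries. With the longest transcript of each gene the mean shares in dual cells were 38.25% for Plod2 and 36.65% for Plod1, so the lead there depends on the length used.

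Cofactors of the hydroxylases were read from a list of 8 genes, of which 2 were lower and 1 higher in red than in green cells. These are 25% and 12.5%, beside 8.48% and 11.8% of all tested genes. Slc2a1, the glucose transporter that also carries oxidized vitamin C, was lower in red cells (log2 fold change -2.69 ± 0.33, adjusted p = 0.000256), lower in dual than in green cells (log2 fold change -1.30 ± 0.33, adjusted p = 0.0327) and higher in dual than in red cells (log2 fold change 1.39 ± 0.33, adjusted p = 0.0475). Its relative Slc2a10 was lower in red cells (log2 fold change -0.90 ± 0.29, adjusted p = 0.0481), and Tmem38a, a cation channel of the reticulum, was higher (log2 fold change 0.88 ± 0.28, adjusted p = 0.0450).

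The prolyl 3-hydroxylation genes were lower in red than in green cells for 5 of 6 members. P3h1, Crtap and Ppib encode a complex that hydroxylates single prolines of the collagen helix and acts as a chaperone. P3h1 (chromosome 4, 119232915 to 119248975, plus strand) had 15017, 19209 and 15436 normalized counts in the green libraries, 6502, 6535 and 11059 in the dual libraries and 5586, 7214 and 9434 in the red libraries. It was 2.27-fold lower in red cells (log2 fold change -1.18 ± 0.27, adjusted p = 0.00928) and 2.12-fold lower in dual cells (log2 fold change -1.08 ± 0.27, adjusted p = 0.0304). Every green library lay above every other library, while the dual and red libraries overlapped. The dual call was lost without the green library of litter 2, the dual library of litter 1 or 2, or the red library of litter 2 (adjusted p from 0.0514 to 0.124). It was also lost under quantile normalization (-0.70, adjusted p = 0.146), with edgeR (adjusted p = 0.0555), with these 2 populations alone (adjusted p = 0.0683) and with no filter (adjusted p = 0.0526). The red call was lost without the red library of litter 1 (adjusted p = 0.0505) and under quantile normalization (adjusted p = 0.0543).

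Crtap (chromosome 9, 114375134 to 114390675, minus strand), the cartilage-associated protein that is the helper subunit, had 13420.2, 17580.4 and 24552 normalized counts in the green libraries, 7977, 10750.1 and 10592 in the dual libraries and 6771, 9345 and 7939 in the red libraries. It was lower in red than in green cells (log2 fold change -1.18 ± 0.25, adjusted p = 0.00687). Against green cells the dual difference of -0.89 ± 0.25 just missed the threshold (adjusted p = 0.0504) and passed with litter as a fixed block (adjusted p = 0.0285) or a random effect (adjusted p = 0.0464) and without the green library of litter 1 (adjusted p = 0.0263). This difference was further from passing under quantile normalization (-0.51, adjusted p = 0.131) and without the dual library of litter 1 (adjusted p = 0.174).

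Ppib, which encodes cyclophilin B, a prolyl isomerase, had 22749, 26428 and 62099 normalized counts in the green libraries, 15169.7, 19826 and 15670.1 in the dual libraries and 14929, 19462 and 15041 in the red libraries. The green library of litter 5 was the highest of the 9, and the other green libraries also lay above the rest. The red difference of -1.03 ± 0.33 passed narrowly (adjusted p = 0.0486), and was lost without any 1 dual or red library (adjusted p from 0.0638 to 0.146). It was also lost with litter as a fixed block (adjusted p = 0.0527), under quantile normalization (adjusted p = 0.0787), with these 2 populations alone (adjusted p = 0.0992), with no filter (adjusted p = 0.0837) and with a pseudocount of 0.5 (adjusted p = 0.0507). Without the green library of litter 5 the difference was -0.58 and passed (adjusted p = 0.0406).

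P3h4, whose product pairs with prolyl 3-hydroxylase 3 in a complex with lysyl hydroxylase 1, had 10779, 14346 and 14737 normalized counts in the green libraries, 7974, 9141 and 8988 in the dual libraries and 5245, 7429.9 and 5862 in the red libraries. It was lower in red than in green cells (log2 fold change -1.11 ± 0.21, adjusted p = 0.00342), with no overlap. P3h2, a prolyl 3-hydroxylase of basement membrane collagen, had 3309, 4320.4 and 2024 normalized counts in the green libraries, 1524, 1357 and 1489 in the dual libraries and 918, 1495 and 2136 in the red libraries. In litter 5 the red library lay above the green library. The dual difference of P3h2 from green cells was -1.08 ± 0.34 and did not pass (adjusted p = 0.0739). It passed without the green library of litter 5 (-1.38, adjusted p = 0.0232). Its red difference of -1.10 ± 0.34 (adjusted p = 0.0402) was lost without any 1 library other than the green and red libraries of litter 5 (adjusted p from 0.0578 to 0.165), with litter as a fixed block (adjusted p = 0.0594), with edgeR (adjusted p = 0.0535), with these 2 populations alone (adjusted p = 0.0885) and with no filter (adjusted p = 0.0581). P3h3 ranged over 7331 to 13389.8, 12234 to 13501 and 6301 to 9036 normalized counts in green, dual and red cells and passed in no comparison. Without the green library of litter 5, P3h3 was lower in red than in green cells (-0.73, adjusted p = 0.0113) and higher in dual than in red cells (adjusted p = 0.0196).

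Among the chaperones, Serpinh1 was lower outside the green population. Serpinh1 (chromosome 7, 99345376 to 99353239, minus strand) encodes HSP47, which binds the folded procollagen helix, and had the highest level per kb of the 35 genes in all 3 populations. It had 226485, 255825 and 222410.0 normalized counts in the green libraries, 112196, 116996 and 157834 in the dual libraries and 109424, 135493 and 136671 in the red libraries. The green libraries lay above all others, and the dual and red libraries overlapped. Serpinh1 was 1.85-fold lower in red cells (log2 fold change -0.89 ± 0.22, adjusted p = 0.0138) and 1.84-fold lower in dual cells (log2 fold change -0.88 ± 0.22, adjusted p = 0.0302). The dual call was lost without any 1 library other than the green and dual libraries of litter 5 (adjusted p from 0.0533 to 0.119), under quantile normalization (-0.29, adjusted p = 0.401), with these 2 populations alone (adjusted p = 0.144) and with no filter (adjusted p = 0.124). The red call was lost without the red library of litter 1 (adjusted p = 0.078), under quantile normalization (-0.31, adjusted p = 0.278) and with no filter (adjusted p = 0.0705).

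Fkbp10, which encodes the prolyl isomerase FKBP65, ranged over 23399 to 33626, 16436 to 24049 and 16115 to 21005 normalized counts in green, dual and red cells. Its red difference of -0.54 ± 0.22 did not pass (adjusted p = 0.113), although the libraries of these groups did not overlap. General folding genes of the reticulum, a list of 19, were lower in red than in green cells for 7 and in dual than in green cells for 3. These are 36.8% and 15.8%, beside 8.48% and 3.02% of all tested genes. Fkbp9, a relative of Fkbp10, was lower in red cells (log2 fold change -1.35 ± 0.21, adjusted p = 0.00120), as were Fkbp11 (log2 fold change -2.23 ± 0.41, adjusted p = 0.00299) and the co-chaperone Dnajb11 (log2 fold change -0.84 ± 0.19, adjusted p = 0.00906).

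Both collagen galactosyltransferases, which start the sugar chains on hydroxylysine, were lower in red cells. Colgalt2 (chromosome 1, 152399830 to 152510695, plus strand) had 5536, 4978 and 4062 normalized counts in the green libraries, 1289, 1181 and 3875 in the dual libraries and 239.9, 456 and 543 in the red libraries. The dual library of litter 5 stood near the green libraries and the other 2 well below. Colgalt2 was 12.3-fold lower in red than in green cells (log2 fold change -3.62 ± 0.44, adjusted p = 0.000262) and 4.62-fold higher in dual than in red cells (log2 fold change 2.21 ± 0.44, adjusted p = 0.0229). Between dual and green cells the difference was -1.41 ± 0.44 (adjusted p = 0.0726), and it was called without the dual library of litter 5 (-1.97, adjusted p = 0.0116). The call against red cells was lost without that same library (adjusted p = 0.0559) or without the red library of litter 1 (adjusted p = 0.0876) or 2 (adjusted p = 0.0718).

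Colgalt1 had 17557, 19761 and 11219 normalized counts in the green libraries, 9705, 9049 and 11958 in the dual libraries and 7848, 8833 and 9357 in the red libraries. It was 1.82-fold lower in red than in green cells (log2 fold change -0.86 ± 0.23, adjusted p = 0.0243), a call lost without the green library of litter 1 or 2 or any 1 red library (adjusted p from 0.061 to 0.0993), under quantile normalization (adjusted p = 0.201) and with these 2 populations alone (adjusted p = 0.0549). Its dual difference from green cells was -0.63 ± 0.23 and did not pass (adjusted p = 0.123). It passed without the green library of litter 5 (-0.87, adjusted p = 0.00955). Per kb, Colgalt2 held 23.9% ± 3.28 of the level of this pair in green, 16.2% ± 7.5 in dual and 4.54% ± 1.34 in red cells.

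The lysyl oxidase family, whose enzymes oxidize lysines to start crosslinks in collagen and elastin, split into members that were higher and members that were lower in red cells. Lox, the founding member, had 3744, 6916 and 936 normalized counts in the green libraries, 3909, 8605 and 6559 in the dual libraries and 19823, 19132 and 24978 in the red libraries. Loxl1, which acts on elastin, had 1033, 1900.1 and 453 normalized counts in the green libraries, 1745, 3143 and 1779 in the dual libraries and 2689, 3639 and 3143 in the red libraries. Red libraries of Lox lay above all others, and those of Loxl1 lay above the green libraries. The lowest library of both genes was the green library of litter 5.

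Lox was 7.31-fold higher in red than in green cells (log2 fold change 2.87 ± 0.58, adjusted p = 0.00520) and Loxl1 3.25-fold higher (log2 fold change 1.70 ± 0.44, adjusted p = 0.0189). Both calls held without the green library of litter 5, but the difference of Lox fell to 2.06 (adjusted p = 0.00259) and that of Loxl1 to 1.16 (adjusted p = 0.0290), while without the green library of litter 2 that of Lox was 3.50 (adjusted p = 0.00126). The Loxl1 call was lost without the red library of litter 2 (adjusted p = 0.0663) or 5 (adjusted p = 0.0604). Lox differed between dual and red cells by -1.81 ± 0.58 and did not pass (adjusted p = 0.146). It passed without the green library of litter 5 (adjusted p = 0.00955), which is in neither group but enters the shared estimate of the spread. Loxl1 against green cells in dual cells was 1.15 ± 0.44 (adjusted p = 0.133), and was called without the green library of litter 2 (adjusted p = 0.028).

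Loxl3 (chromosome 6, 83034173 to 83052562, plus strand) went the other way, with 12660.5, 15166 and 12093 normalized counts in the green libraries, 6807, 4845 and 11630.3 in the dual libraries and 2012, 1469 and 1802 in the red libraries. Loxl4 (chromosome 19, 42593982 to 42612813, minus strand) had 1940.1, 5110.1 and 2279 normalized counts in the green libraries, 48, 73.3 and 357 in the dual libraries and 76.9, 140.4 and 129 in the red libraries. Loxl3 in dual cells lay between the other populations without overlap, while dual and red libraries of Loxl4 overlapped far below the green libraries. Loxl3 was 7.58-fold lower in red than in green cells (log2 fold change -2.92 ± 0.29, adjusted p = 7.31e-05) and 4.16-fold higher in dual than in red cells (log2 fold change 2.06 ± 0.29, adjusted p = 0.00332), and both calls held under all 21 alternatives. Its dual difference from green cells was -0.87 ± 0.29 (adjusted p = 0.0924), and was called without the dual library of litter 5 (adjusted p = 0.0219).

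Loxl4 was 25.1-fold lower in red cells (log2 fold change -4.65 ± 0.65, adjusted p = 0.000643) and 25.9-fold lower in dual cells (log2 fold change -4.69 ± 0.65, adjusted p = 0.00215) than in green cells, and both calls also held under all 21 alternatives. The dual difference was -5.55 without the dual library of litter 5 (adjusted p = 0.000461), which held the highest dual level. Loxl2, which also acts on basement membrane collagen, ranged over 2594 to 4417, 3797 to 4793 and 3953 to 5697 normalized counts and passed in no comparison. Without the green library of litter 2 it was higher in red than in green cells (0.81, adjusted p = 0.0357).

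Per kb, the 5 genes summed to 3982 to 7349 in green, 3540 to 5411 in dual and 6151 to 7657 in red libraries, and green and red libraries overlapped. The make-up of that sum differed: Lox held 13.7% ± 7.75 in green, 29.2% ± 8.62 in dual and 66.6% ± 2.27 in red cells, while Loxl3 held 56% ± 10.6, 37.1% ± 12.6 and 5.77% ± 1.16. Loxl4 held 13.2% ± 3.47 in green, 0.756% ± 0.704 in dual and 0.41% ± 0.118 in red cells.

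**Figure D3:**
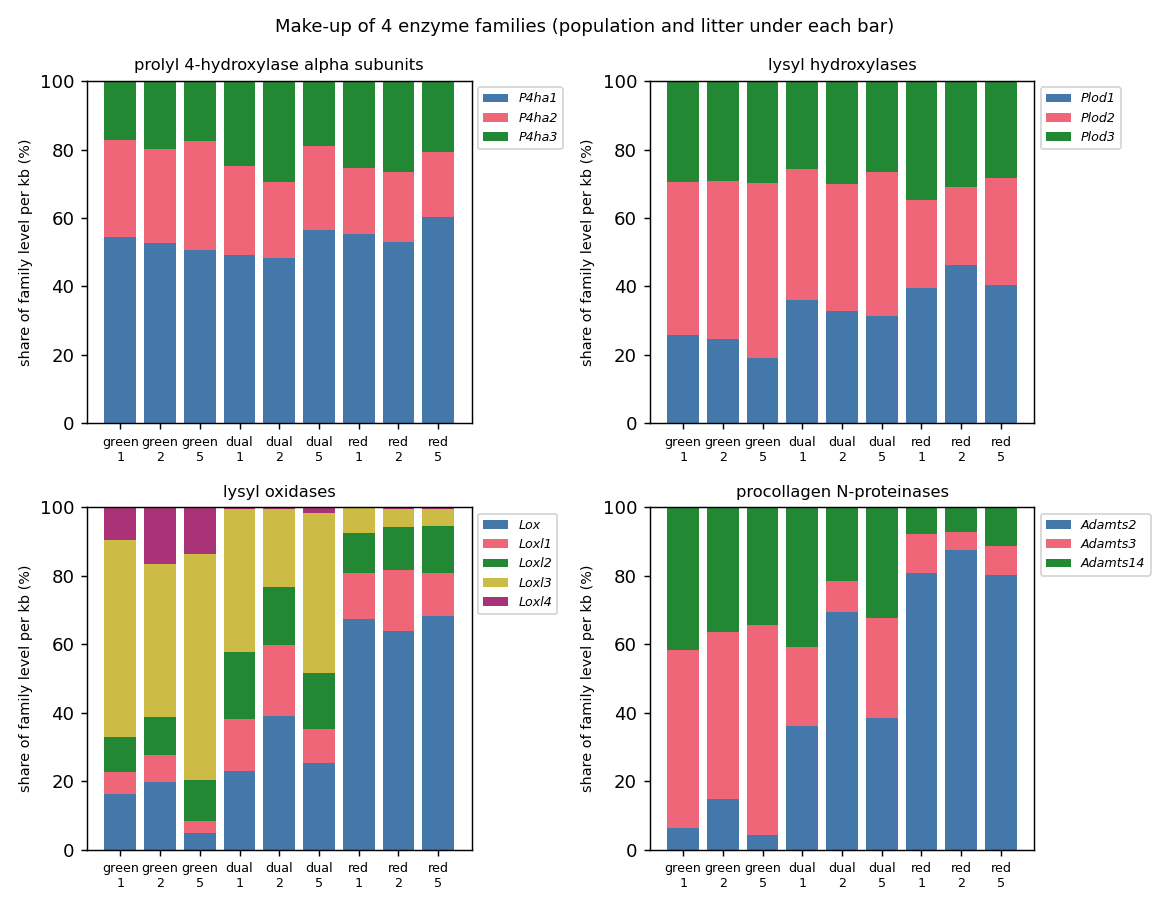
Share (%) of each gene in the summed level per kb of its family, 1 bar per library, with the population (green, dual, red) and litter under each bar. Lox makes up 66.6% of the lysyl oxidase level in red cells on average and Adamts2 82.8% of the N-proteinase level, against 13.7% and 8.55% in green cells.

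Among genes of C-propeptide cleavage, Pcolce2 had the largest decrease of the 35 genes in red against green cells; in dual against green cells Loxl4 had a larger one. Pcolce and Pcolce2 encode enhancers of the C-proteinases BMP1 and tolloid-like 1 and 2. Pcolce2 (chromosome 9, 95637601 to 95698096, plus strand) had 9490.4, 13861 and 29159.7 normalized counts in the green libraries, 614, 760.1 and 1818 in the dual libraries and 196, 166 and 245 in the red libraries. The 3 groups did not overlap, and within each litter the level fell from green to dual to red cells. Pcolce2 was 16.5-fold lower in dual (log2 fold change -4.05 ± 0.45, adjusted p = 0.000678) and 77.9-fold lower in red cells (log2 fold change -6.28 ± 0.45, adjusted p = 9.81e-06) than in green cells. Between dual and red cells it was 4.72-fold higher in the former (log2 fold change 2.24 ± 0.45, adjusted p = 0.0244), a call lost without the dual library of litter 5 or any 1 red library (adjusted p from 0.0655 to 0.111).

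Pcolce ranged over 8529 to 18549.7, 5260.3 to 7789.9 and 6599.7 to 9866 normalized counts in green, dual and red cells. Its dual difference from green cells was -0.998 ± 0.30 and did not pass (adjusted p = 0.0644), but passed with litter as a fixed block (adjusted p = 0.0179) and without the green library of litter 1 (adjusted p = 0.0141). The red difference of -0.71 ± 0.30 (adjusted p = 0.119) passed under the same changes (adjusted p = 0.0363 and 0.0188). Per kb, Pcolce2 held 48.9% ± 7.14 of the level of this pair in green, 10.9% ± 4.93 in dual and 2.02% ± 0.557 in red cells.

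Bmp1, the main C-proteinase gene, had 5851, 7714 and 2701 normalized counts in the green libraries, 7113, 8972 and 7677 in the dual libraries and 10347, 10435 and 11651 in the red libraries. All red libraries lay above all others. It was 2.18-fold higher in red than in green cells (log2 fold change 1.12 ± 0.32, adjusted p = 0.0310), a call lost without any 1 red library (adjusted p from 0.074 to 0.101), with edgeR (adjusted p = 0.0578) and with these 2 populations alone (adjusted p = 0.0714). Without the green library of litter 5 the difference was 0.68 and passed (adjusted p = 0.0155). Bmp1 made up 97% ± 1.6, 96.9% ± 1.38 and 96.3% ± 0.825 of the level per kb of the 3 proteinase genes in green, dual and red cells.

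Its relatives were scarce. Tll1 ranged over 23.1 to 247, 144 to 269 and 195 to 321 normalized counts and passed in no comparison. Tll2 was the lowest of the 35 genes, with 4.13, 4.9 and 9.5 normalized counts in the green libraries, 17.3, 0 and 10.5 in the dual libraries and 36.6, 38.5 and 95.2 in the red libraries. The 0 stands for no read in that library, where up to 3 reads cannot be told from none. Red libraries of Tll2 lay above all others, but the difference of 2.94 ± 1.07 from green cells did not pass (adjusted p = 0.0751), and passed without the dual library of litter 2 (adjusted p = 0.0174).

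The procollagen N-proteinases differed in direction between populations. Adamts2, the main enzyme for types I and III, had 364, 873 and 138 normalized counts in the green libraries, 567, 2304 and 1129.8 in the dual libraries and 3989, 5807 and 4845 in the red libraries. Adamts3 (chromosome 5, 89677087 to 89883334, minus strand), an N-proteinase of type II procollagen in biochemical work, had 1708, 1672 and 1119 normalized counts in the green libraries, 210.4, 172 and 500.2 in the dual libraries and 332, 207 and 298 in the red libraries. Adamts14 had 1317, 1195 and 597 normalized counts in the green libraries, 355, 398 and 530.1 in the dual libraries and 213, 266 and 377 in the red libraries. Adamts2 was highest in the red libraries, Adamts3 and Adamts14 in the green libraries, each without overlap between these populations.

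Adamts2 was 13.6-fold higher in red than in green cells (log2 fold change 3.77 ± 0.61, adjusted p = 0.00153), while Adamts3 was 5.36-fold lower (log2 fold change -2.42 ± 0.40, adjusted p = 0.00166) and Adamts14 3.52-fold lower (log2 fold change -1.82 ± 0.36, adjusted p = 0.00471). Adamts3 was also 5.59-fold lower in dual than in green cells (log2 fold change -2.48 ± 0.40, adjusted p = 0.00427). These 4 calls held under all 21 alternatives. The size for Adamts2 rested on single green libraries: it was 3.10 without that of litter 5 (adjusted p = 0.00325) and 4.42 without that of litter 2 (adjusted p = 0.000551). Adamts2 differed between dual and red cells by -2.08 ± 0.61 and did not pass (adjusted p = 0.112), but passed with litter as a fixed block (adjusted p = 0.0493) and without the green library of litter 5 (adjusted p = 0.0336). Against green cells the dual difference of Adamts2 was 1.69 ± 0.61 (adjusted p = 0.116), which passed without the green library of litter 2 (adjusted p = 0.0292), and that of Adamts14 was -1.21 ± 0.36 (adjusted p = 0.0607), which passed without the green library of litter 5 (adjusted p = 0.0116).

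Per kb, the 3 genes summed to 336 to 631 in green, 168 to 355 in dual and 529 to 711 in red libraries. Adamts2 held 8.55% ± 5.51 of it in green, 48% ± 18.6 in dual and 82.8% ± 4.01 in red cells, and Adamts3 54% ± 6.58, 20.4% ± 10.4 and 8.47% ± 3.1.

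**Figure D4:**
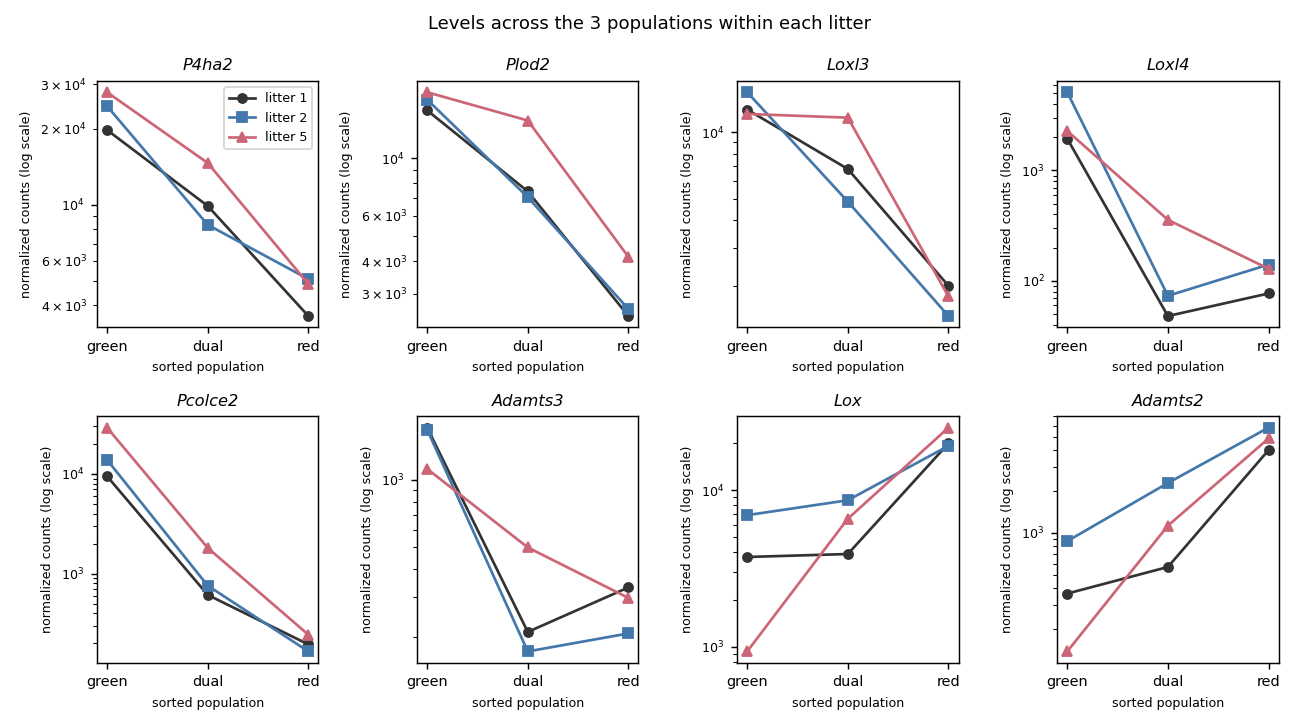
Normalized counts (log axes of separate range) of 8 genes in green, dual and red cells, with 1 line per litter. Pcolce2 falls at both steps in all 3 litters, Loxl4 and Adamts3 fall at the first step, and Lox and Adamts2 are highest in red cells in all 3 litters.

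The export genes passed in no comparison by limma, edgeR or DESeq2, and 1, Mia3, had an unadjusted p under 0.05, in red against green cells. Sec23a and Sec24d encode inner coat proteins of COPII, Mia3 encodes TANGO1, which loads procollagen into carriers, and Tmem38b encodes a cation channel of the reticulum. Sec23a ranged over 4857 to 13967, 6524 to 9821 and 7508 to 11165 and Sec24d over 5123 to 10485, 6342 to 7659 and 7027 to 8320.1 normalized counts in green, dual and red cells, with overlap throughout. For both genes the green library of litter 5 was the lowest of the 9. Mia3 ranged over 1256 to 1554, 1379.7 to 1554 and 1739 to 2569, and its red libraries lay above all others (difference from green cells 0.56 ± 0.22, adjusted p = 0.0989). Tmem38b ranged over 233 to 507, 292 to 415 and 381 to 449. The adjusted p of the 4 genes lay between 0.0989 and 0.999 over the 3 comparisons.

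Of 16 other COPII genes tested, 3 were lower in red than in green cells (18.8%, beside 8.48% of all tested genes). In dual cells 1 was lower and 1 higher than in green cells (6.25% each, beside 3.02% and 5.27% of all tested genes). The coat gene Sec13 was lower in red (log2 fold change -1.18 ± 0.25, adjusted p = 0.00630) and in dual cells (log2 fold change -1.02 ± 0.25, adjusted p = 0.0286), and the GTPase gene Sar1b was lower in red cells (log2 fold change -1.09 ± 0.30, adjusted p = 0.0234), as was the SNARE gene Stx18 (log2 fold change -0.92 ± 0.22, adjusted p = 0.0141). Sec16b was higher in dual than in green cells (log2 fold change 2.04 ± 0.54, adjusted p = 0.0422). Creb3l1 and Creb3l2, which encode membrane-bound transcription factors that control secretory genes, passed in no comparison. The red difference was 1.46 ± 0.54 for Creb3l1 (adjusted p = 0.0772) and -0.86 ± 0.28 for Creb3l2 (adjusted p = 0.0513).

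Sparc, whose product binds collagen outside the cell, was among the 3 most abundant members per kb in each population. It had 49889.8, 91771 and 166942 normalized counts in the green libraries, 55804, 100195 and 75279 in the dual libraries and 79121, 124326 and 101057 in the red libraries. The lowest and the highest of the 9 libraries were both green, and no comparison passed (adjusted p from 0.685 to 0.848).

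The substrates moved apart. Col2a1, the type II chain, had 755382 ± 311075 normalized counts in green, 230109 ± 142626 in dual and 4449 ± 1639 in red cells (mean ± SD, n = 3). It was lower in red (log2 fold change -7.40 ± 0.45, adjusted p = 4.96e-06) and in dual (log2 fold change -1.79 ± 0.45, adjusted p = 0.0321) than in green cells. Col3a1 was higher in red than in green cells (log2 fold change 3.03 ± 0.58, adjusted p = 0.00412). Col1a1 and Col1a2 had red differences of 1.90 ± 0.94 and 1.91 ± 0.64 that did not pass (adjusted p = 0.174 and 0.0568). Of 11 fibrillar procollagen genes 4 were higher and 4 lower in red than in green cells (36.4% each, beside 11.8% and 8.48% of all tested genes). In dual cells 1 was higher and 3 were lower than in green cells (9.09% and 27.3%, beside 5.27% and 3.02%).

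The summed fibrillar procollagen genes made up 1.39% to 4.55% of all normalized counts in green, 1.34% to 2.48% in dual and 2.26% to 2.72% in red libraries, and these ranges overlapped. The 35 genes made up 1.68% to 2.08%, 1.21% to 1.59% and 1.19% to 1.41%, and the green range lay above the others. Without Sparc these were 1.34% to 1.85%, 1.04% to 1.37% and 0.951% to 1.1%, and the green and dual ranges then overlapped.

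Of the 35 genes 10 share exon bases with a gene on the other strand that had reads. They are Plod2, Plod3, P3h2, Ppib, Fkbp10, Colgalt1, Loxl2, Loxl3, Pcolce and Sec23a. The shared part ran from 2.93% of the exon bases of Pcolce to 28.35% of those of P3h2. The strand setting of the counting was not stated, so reads in the shared bases of such pairs cannot be told apart.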

How the data were processed

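RNA of sorted knee cells was read as bulk Nextera XT libraries. Tools named by the submitters (their processing notes, without versions or roles) were FastQC, STAR, Salmon and DESeq2, with mm10 as the build. The authors deposited normalized counts (a signal) of 54532 genes in 9 libraries. How reads were assigned to genes was not stated. Deposited values were whole multiples of 1 read's value for 100% of entries (within 0.001 read), which gave reads, 25199258 to 47079305 a library. Libraries of 1 population differed beyond counting error (chi-square) and each stood as a sample.

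Log2(normalized count + 1) values of 17764 genes with a mean of at least 10 were fitted with limma 3.58.1 (R 4.3.3, variance trend), with all 9 libraries and no block. Fold changes of low genes are understated on this scale. Two-sided p-values got Benjamini-Hochberg adjustment over all tested genes. The script was tested on simulated data. Levels per kb used the merged exon length of GENCODE M21 (GRCm38).

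The 35 genes and the lists of pathway genes and cell type markers were chosen with earlier results of these data known. Genes with a call are given in every library and the others mostly by range. From each pathway list at most 3 called genes with the smallest adjusted p are named per comparison, plus the main procollagen genes, Creb3l1, Creb3l2, Creb5 and Sox9. Hif1a, Ndrg1 and Sec16b were added after their values were seen.

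Labels give each number as a litter with a date of its own, so numbers pair libraries across populations. As a check, deviations from population means correlated with a median of 0.103 over 9 pairs of 1 litter (-0.0353 to 0.149) and -0.0409 over 18 pairs of different litters, and the consensus correlation was 0.0169. Alternatives changed the pseudocount, filter and scaling, took 2 populations at a time, added litter as a block, used edgeR 4.0.16 or DESeq2 1.42.0 on the reads, or left out a library. Removal of a trend with transcript length was added after the data were seen.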

Additional observations from a re-analysis of the deposited data

How the results depend on the processing

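Over the 3 comparisons the 35 genes gave 36 calls. None changed sign under the 21 alternatives, 19 passed under all of them and 20 passed without every single library. With litter as a fixed replicate block 33 passed and with litter as a random block 36; the 3 lost were Plod1, P3h2 and Ppib in red against green cells. The count of genes lower in dual than in green cells moved the most: from 6 it went to 3 with these 2 populations alone, 10 with litter as a fixed block, 15 with DESeq2 and 15 with the trend with length removed, and ranged over 3 to 11 without single libraries. Genes higher there ranged over 0 to 2 without single libraries. Genes lower in dual than in red cells were 0, but 2 with these populations alone, 2 with DESeq2, 1 with litter as a fixed block and 0 to 2 without single libraries, and genes higher there ranged over 1 to 8. Red against green cells ranged over 2 to 5 genes higher and 14 to 21 lower, and the test over all 3 populations, at 19 genes, over 15 to 25 (25 with DESeq2, and 15 to 23 without single libraries). The cause of these shifts was not tested. With 3 libraries a group, 1 library can decide a call near the threshold, and depth did not limit the genes named other than Tll2.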

Other observations

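Upstream windows of 250 bases were found in RefSeq (GRCm38.p6) for 24 of the 35 genes. On either strand ACGTG stood in those of 10 genes (Adamts3, Mia3, P3h1, P4ha1, P4ha2, P4hb, Plod3, Ppib, Sec24d and Serpinh1), beside 16.6% of all 32851 windows. TGACG, part of the site bound by CREB-type bZIP proteins, stood in those of 7 genes (Adamts3, Colgalt1, Loxl4, Mia3, P4ha2, P4hb and Sec24d), beside 17.8%, and the whole palindrome TGACGTCA in none, beside 1.55%. TGANTCA, the AP-1 letters, stood in none, beside 6.75%, and CCAAT in those of 8 genes, beside 33.8%. The letters of TGACG and ACGTG can share bases and do so in the windows of Adamts3, Mia3 and Sec24d. These are matches of letters in short windows and were not set against the calls.

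Regulators of fibril growth and collagen uptake were read from a list of 19 tested genes. Of these 5 were higher and 3 lower in red than in green cells (26.3% and 15.8%, beside 11.8% and 8.48% of all tested genes). In dual cells 4 were higher and 4 lower than in green cells (21.1% each, beside 5.27% and 3.02%). Comp, a cartilage glycoprotein that binds collagen, was lower in red cells (log2 fold change -9.02, adjusted p = 6.62e-05), and so was the transglutaminase gene Tgm2 (-3.93, adjusted p = 0.000131). Kera, a small leucine-rich proteoglycan gene that is also in the tendon marker list, was higher (5.03, adjusted p = 0.000129).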
